A study of Homo sapiens with 6 samples.

Results

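The transcriptome described here is that of untreated wild-type (WT) SH-SY5Y cells, an established human neuroblastoma cell line of sympathetic origin. It was read from 3 of the 6 RNA-seq libraries of a study that asked what DNAJC12, a co-chaperone of HSP70, does in these cells. The members are the 3 libraries whose labels give the genotype as WT and the treatment as none. The other 3 libraries came from cells with a CRISPR/Cas9 knockout of DNAJC12, were not used here, and no comparison of genotypes was made. The labels number the WT libraries as replicates 1, 2 and 3 but do not say whether they were separate cultures, so every SD given below measures the spread between these libraries (n = 3), which may be technical.

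Neuroblastoma arises from the sympathoadrenal branch of the neural crest, the embryonic cells that form sympathetic neurons and the chromaffin cells of the adrenal medulla. In that lineage a small circuit of transcription factors, among them HAND2 and GATA3, turns on the enzymes that make noradrenaline and the proteins of the vesicles that store it. Neuroblastoma cells are often described along an axis from this adrenergic state to a mesenchymal state, in which matrix and cytoskeletal genes take over.

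Levels are given in TPM, the abundance of transcripts scaled to a fixed total per library, a length-corrected unit that allows genes to be compared within a library. A gene was counted as present at 1 TPM or more in all 3 libraries. Of 19828 protein-coding genes, 11959 (60.3%) were present, 7748 reached 10 TPM, 1270 reached 100 TPM and 118 reached 1000 TPM in every library. The median level of the genes present was 18.97 TPM. Replicate 1 had 20071795 counts in the gene table, replicate 2 had 19321842 and replicate 3 had 19418072, so that a single count was worth 0.0498 to 0.0518 CPM (counts scaled to the same fixed total, with no correction for length). Between 94.4% and 94.6% of the reads lay on transcripts that GENCODE 29 lists. Of the 12370 protein-coding genes with at least 100 counts, 1340 (10.8%) had under 90% of their counts on listed transcripts, and the TPM of those genes is understated. Such a gene is marked below with its share of listed counts.

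A few gene classes held much of the RNA. The 10 highest protein-coding genes held 13.1% ± 0.0883 of all protein-coding TPM, the highest 100 held 39.1% ± 0.195 and the highest 1000 held 68.8% ± 0.388. Of the highest 100, 62 encoded ribosomal proteins and 11 were mitochondrially encoded mRNAs, which left 27 others. The 13 mitochondrial mRNAs, which encode subunits of the respiratory chain and ATP synthase, made up 12.5% ± 0.114 of all TPM. The 87 genes for cytosolic ribosomal proteins made up 18.6% ± 0.308. The highest single gene was MT-CO3, a subunit of cytochrome oxidase, at 23249 ± 357 TPM. MT-ND6, the mitochondrial mRNA encoded on the opposite strand from the others, stood at 209 ± 29.6 TPM. Mitochondrial ribosomal RNA, which the library kit was meant to remove, still made up 1.13% ± 0.0453 of TPM, and MT-RNR2, its large subunit, was the highest non-coding gene at 9243 ± 492 TPM. The next non-coding entries included AC116533.1 (2295 TPM) and the pseudogenes RPL23AP42 (1614 TPM) and MTATP6P1 (1502 TPM). Such copies share sequence with working genes, so their reads are uncertain.

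Among the highest genes that are neither ribosomal nor mitochondrial were general ones and some that mark a cell type. TMSB10, an actin-binding thymosin, ranked 11 at 7012 ± 296 TPM, and PPIA (cyclophilin A) and FTH1 (ferritin heavy chain) stood at 3935 ± 145 and 3885 ± 140 TPM. The glycolytic enzyme GAPDH ranked 24 at 3398 ± 124 TPM. RGS5, a regulator of G-protein signalling best known from pericytes, ranked 33 at 3155, 3206 and 2944 TPM in replicates 1, 2 and 3. MDK, the secreted growth factor midkine, ranked 37 at 2997 ± 46.4 TPM. The intermediate filament gene VIM stood at 1701 ± 79.3 TPM and the detoxifying enzyme GSTP1 at 1373 ± 24.9 TPM. RGS5 lay just under GAPDH in each library by TPM, whereas by CPM RGS5 ranked 6 and GAPDH 14, and TMSB10 ranked 42.

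**Figure D1:**
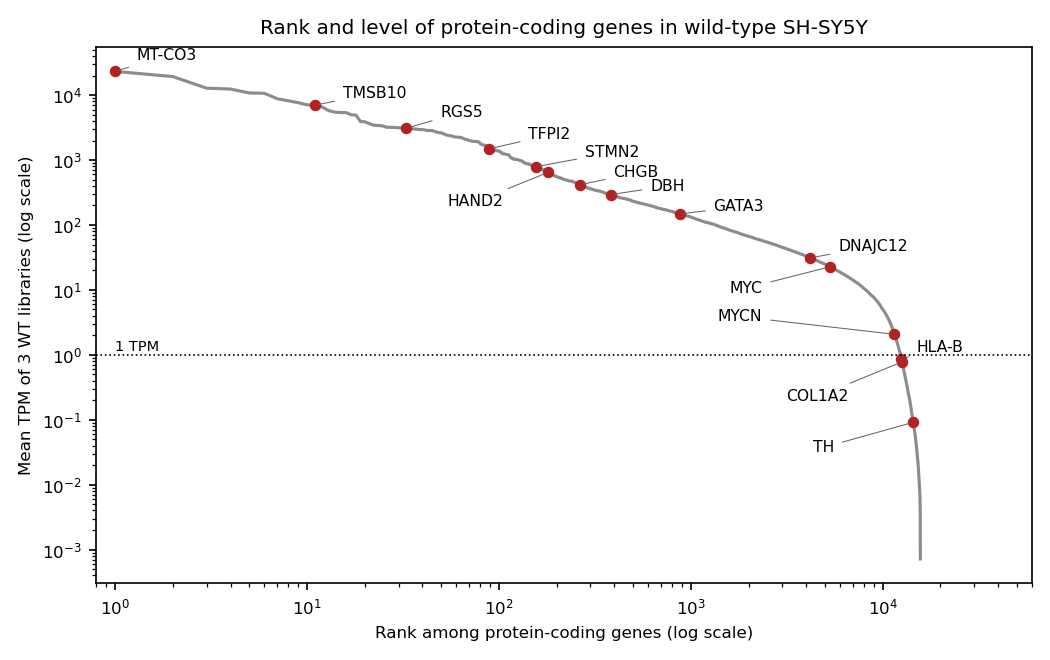
Mean TPM of the 3 WT libraries (log scale) against rank among protein-coding genes (log scale), with named genes as red points and a dotted line at 1 TPM. TFPI2, HAND2, CHGB, DBH and GATA3 lie between ranks 89 and 877, while HLA-B, COL1A2 and TH lie under the line.

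The 5 genes taken as markers of these cells were all among the highest 877 protein-coding genes. HAND2, a basic helix-loop-helix factor needed for sympathetic neurons to become noradrenergic, had 679, 649.8 and 606 TPM in replicates 1, 2 and 3 and ranked 180. GATA3, a zinc finger factor of the same circuit, had 147.4, 147.5 and 149 TPM and ranked 877. DBH, the enzyme that converts dopamine to noradrenaline, had 271, 291 and 322 TPM and ranked 384. The order of these genes was the same in every library, and no library was highest for all of them. CHGB (chromogranin B, a protein of the core of secretory granules) had 458, 419 and 371 TPM and ranked 264. TFPI2, a secreted inhibitor of serine proteases that is held in the matrix, had 1234, 1471 and 1759 TPM and ranked 89. TFPI2 had the widest spread of the markers, with a coefficient of variation (CV, the SD over the mean) of 17.7%, and GATA3 the narrowest with 0.627%. DNAJC12 itself ranked 4202 with 33.8, 31.3 and 28.2 TPM. All 6 genes had their counts on listed transcripts. Ranked by CPM, which favours long transcripts, TFPI2 stood at 31, HAND2 at 65, CHGB at 124, DBH at 170, GATA3 at 579 and DNAJC12 at 7986.

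In GENCODE 29 (GRCh38), HAND2 lies on the minus strand at chr4:173524969-173530229, GATA3 on the plus strand at chr10:8045378-8075203 and DBH on the plus strand at chr9:133635348-133659344. CHGB lies on the plus strand at chr20:5911430-5925361, TFPI2 on the minus strand at chr7:93885396-93890991 and DNAJC12 on the minus strand at chr10:67796665-67838166.

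The transcription factors of the sympathoadrenal lineage were nearly all present. Of 28 listed, 25 (89.3%) had at least 1 TPM in every library, beside 60.3% of all protein-coding genes. The list median was 38.2 TPM beside 5.22 TPM over all protein-coding genes. PHOX2A, a paired homeodomain factor that binds core ATTA motifs, had 509, 477 and 510.1 TPM and was the second highest of the list. GATA2, the partner paralog of GATA3, stood at 243 ± 7.21 TPM and was 1.62 to 1.69 times as high as GATA3. The LIM-homeodomain factor ISL1 had 127 ± 10.2 TPM, the T-box factor TBX2 148 ± 12.3 TPM, TFAP2B, a factor of neural crest cells, 70.4 ± 5.57 TPM and HAND1, the paralog of HAND2, 33.0 ± 0.795 TPM.

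The list also had low members. LMO3, a LIM-only factor, had 0.328 ± 0.297 TPM from 18 reads. INSM1, a zinc finger factor of neuroendocrine cells, had 0 reads in all 3 libraries, where 3 reads would have given 0.0248 TPM. Its paralog INSM2 had 216, 197 and 171 TPM and was the fourth highest of the list. In RNA from many cells at once, a low level from few cells and a low level in every cell cannot be told apart.

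The 250 bases upstream of the start of HAND2 are shown because HAND2 is the highest factor of the list and the homeodomain factors PHOX2A and ISL1 stood at 127 TPM or more. The sequence is RefSeq's, on GRCh38.p14, at chr4:173530230-173530479, read 5′ to 3′ on the minus strand, and GENCODE 29 places the start of HAND2 at the same base. Capitals mark ATTA or its reverse complement TAAT.
HAND2: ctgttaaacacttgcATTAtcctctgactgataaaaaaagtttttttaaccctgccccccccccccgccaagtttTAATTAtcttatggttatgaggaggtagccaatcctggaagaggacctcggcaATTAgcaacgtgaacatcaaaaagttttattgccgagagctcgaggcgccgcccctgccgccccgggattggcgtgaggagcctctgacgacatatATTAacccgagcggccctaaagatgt

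The HAND2 window holds ATTA on either strand 5 times, counting both strands of the palindrome TAATTA. Of 27305 RefSeq promoter windows of the same length, 48.2% hold ATTA on either strand at least once and 6.51% at least 5 times. GATA, searched on both strands, occurs 3 times in the HAND2 window, and 46.5% of all windows hold it at least once and 7.73% at least 3 times. TGACG, the core letters of a cyclic AMP response element, occurs once in the window, and 21.7% of all windows hold it. These matches describe the letters and do not show that a factor binds there. The GC content of the window was 49.6%.

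HAND2 shares its start region with a long non-coding RNA on the opposite strand. In RefSeq, HAND2-AS1 has a start 229 bases upstream of that of HAND2 and runs the other way, and in GENCODE 29 the gene begins within HAND2 (chr4:173527270-173659696, plus strand), so the genes overlap. Its level was 319.7 TPM in replicate 1, 304 in replicate 2 and 244 in replicate 3, and HAND2 was 2.12 to 2.48 times as high. GATA3 was 6.61 to 7.73 times as high as its own divergent transcript GATA3-AS1. The kit marks strand, but no source used here gives the strand setting of the quantification.

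The enzymes of noradrenaline synthesis were expressed except for the one at the head of the pathway. Of 22 genes of catecholamine synthesis and handling, 17 (77.3%) were present, beside 60.3% of all protein-coding genes. The list median was 29.6 TPM. TH, the rate-limiting tyrosine hydroxylase, had 0.102, 0 and 0.172 TPM, from 6 reads in all. DDC, which makes dopamine from the product of TH, had 93.5, 95.3 and 109 TPM, and DBH was 2.90 to 3.06 times as high as DDC. PNMT, which converts noradrenaline to adrenaline, had 5.31, 2.99 and 7.34 TPM. The genes of the cofactor that TH needs were expressed. GCH1, the first enzyme of its synthesis, stood at 44.2 ± 0.486 TPM, and PCBD1 and QDPR, which recycle that cofactor, at 207 ± 11.0 and 106 ± 7.52 TPM. CYB561, the vesicle cytochrome that supplies electrons to DBH, had 269.97 ± 14.2 TPM.

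Transporters divided in the same uneven way. SLC6A2, the noradrenaline transporter, had 64.1, 66.2 and 60.5 TPM, whereas SLC6A3, the dopamine transporter, had 0 reads, where 3 reads would have given 0.0904 TPM. Of the vesicular monoamine transporters, SLC18A1 had 23.9, 27.3 and 33.1 TPM and SLC18A2 had 0.0265 ± 0.0121 TPM from 4 reads. Monoamine oxidase A (MAOA) was 4.59 to 6.47 times as high as MAOB.

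**Figure D2:**
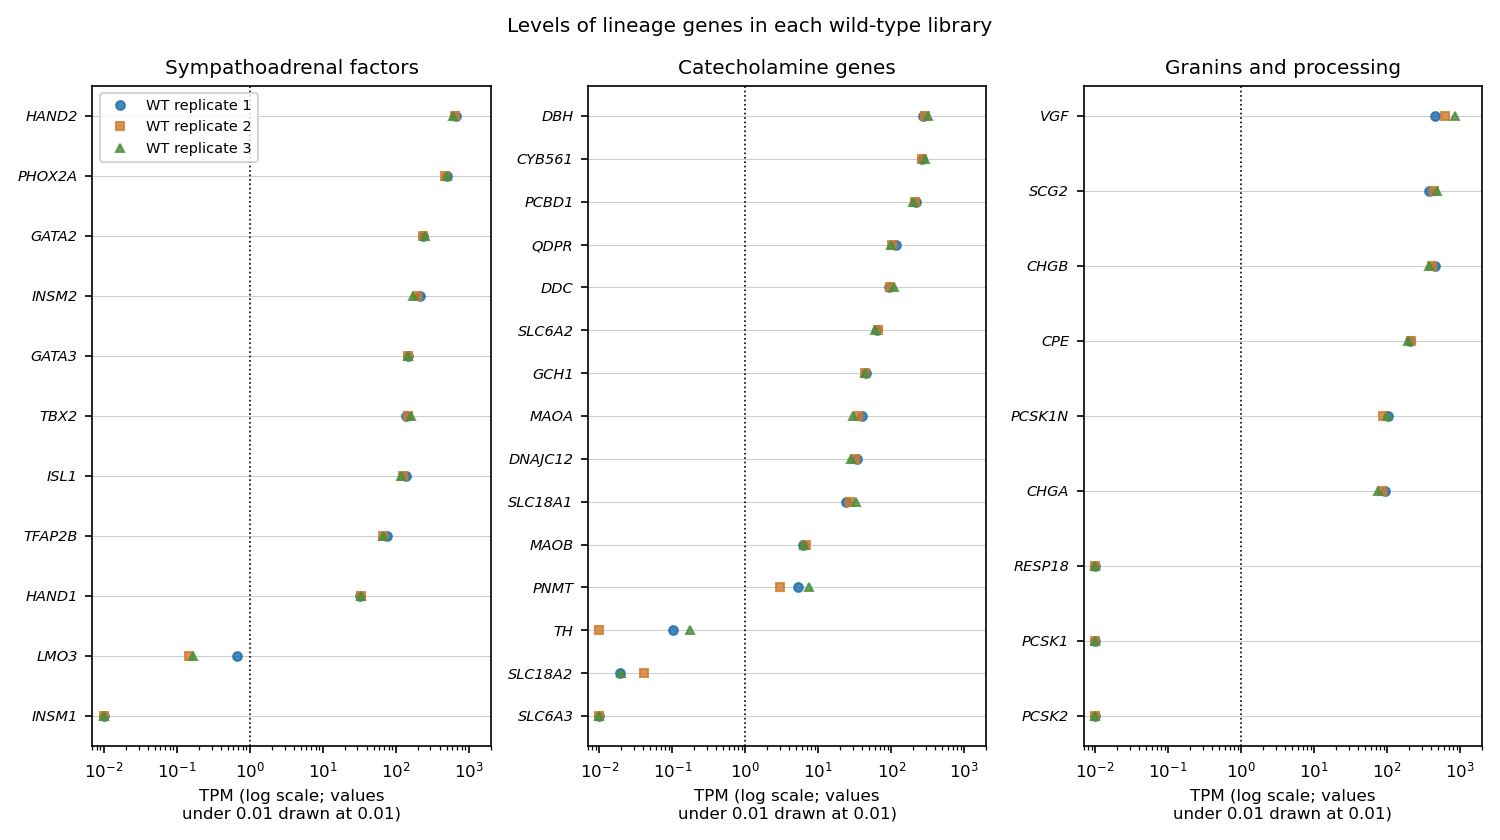
TPM (log scale, values under 0.01 drawn at 0.01) of the sympathoadrenal factors, catecholamine genes and granin or processing genes named in the text in WT replicates 1, 2 and 3 (circle, square, triangle), with a dotted line at 1 TPM. The 3 libraries lie close together for high genes, and INSM1, TH, SLC18A2, SLC6A3, RESP18, PCSK1 and PCSK2 lie far under the line.

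RNAs of several granule proteins were abundant. Of 14 granin and prohormone processing genes, 11 (78.6%) were present, beside 60.3% of all protein-coding genes. VGF, SCG2 and CHGB led them. VGF, a growth-factor-induced neuropeptide precursor, had 461, 632 and 856 TPM, the widest range of the list. SCG2 (secretogranin II) had 375, 442 and 489 TPM. CHGB was 4.85 to 4.98 times as high as CHGA, which stood at 84.7 ± 9.51 TPM. CPE, the carboxypeptidase that trims prohormones, had 205 ± 9.82 TPM. PCSK1 and PCSK2, the prohormone convertases of dense core granules, and RESP18 had 0 reads, while the convertase inhibitor PCSK1N had 97.6 ± 8.20 TPM.

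Few neuropeptide genes were present, 7 of 22 (31.8%), beside 60.3% of all protein-coding genes. Of the 22, 12 had 0 reads, among them PENK, PDYN, ADCYAP1, TAC1, SST and CARTPT. NPY, the cotransmitter of sympathetic neurons, led at 149, 171 and 199 TPM, NMB (neuromedin B) had 57.1, 63.1 and 60.2 TPM and GAL (galanin) stood at 44.6 ± 10.3 TPM. VIP, a peptide of cholinergic sympathetic neurons, had 5.83 ± 1.02 TPM.

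Receptor subunits of autonomic ganglia were present, while the enzyme that makes acetylcholine was near 0. Of 17 cholinergic genes, 11 (64.7%) were present, near the 60.3% of all protein-coding genes. The ganglionic nicotinic subunits CHRNA3, CHRNA5 and CHRNB4, which lie together on chromosome 15, had 129 ± 5.44, 32.2 ± 2.65 and 23.5 ± 0.894 TPM. CHAT had 0.0707 ± 0.0699 TPM from 17 reads, and the vesicular acetylcholine transporter SLC18A3, which lies within the CHAT locus, had 6.79 ± 0.567 TPM. CHRNA4 had 0 reads.

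Markers of other kinds of neuron were mostly under 1 TPM. Of 13 markers of GABA, glutamate and serotonin neurons, 2 (15.4%) were present, beside 60.3% of all protein-coding genes. FEV, an ETS factor of serotonin neurons, led at 25.2 ± 2.70 TPM. GAD2, SLC17A6 and TPH1 had 0 reads on listed transcripts. Of 14 markers of midbrain dopamine neurons, 1 was present. LMX1B, EN1, FOXA1, FOXA2, OTX2, SLC6A3, ALDH1A1 and KCNJ6 had 0 reads, and PITX3 and LMX1A stood at 0.0423 ± 0.0733 and 0.0207 ± 0.0358 TPM.

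Most genes shared by neurons were present, and some stood at high levels. Of 32 pan-neuronal genes, 28 (87.5%) were present, beside 60.3% of all protein-coding genes. The list median was 28.4 TPM, and 8 members reached 100 TPM in every library. UCHL1, a neuronal ubiquitin hydrolase, had 1261, 1232 and 1245 TPM. The microtubule regulators STMN1 and STMN2 had 1236 ± 71.1 and 792 ± 58.5 TPM, and the tubulins TUBA1A and TUBB3 had 1066 ± 119.7 and 324 ± 36.5 TPM. RBFOX3, which encodes the mature neuron antigen NeuN, had reads in replicate 3 alone, 4 in all, and STMN4 stood at 0.771 ± 0.236 TPM. Synaptic vesicle genes were lower: 16 of 24 (66.7%) were present, with a median of 5.52 TPM. Both values were near those of all protein-coding genes (60.3% and 5.22 TPM). SV2A, a vesicle glycoprotein, stood at 34.6 ± 1.08 TPM and SYT1, the calcium sensor, at 33.7 ± 2.42 TPM with 86.6% of its counts on listed transcripts. SYN1 (synapsin I) stood at 0.213 ± 0.0272 TPM.

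The matrix list was mixed, with high glycoproteins and proteases and collagen chains at very unequal levels. Of 61 genes, 41 (67.2%) were present, near the 60.3% of all protein-coding genes, with a median of 17.5 TPM. After TFPI2 came SPARC, a collagen-binding glycoprotein, with 541, 479.5 and 434 TPM, TIMP2 with 441, 428 and 426 TPM and its target protease MMP2 with 375, 371 and 359.96 TPM. The ratio of MMP2 to TIMP2 was 0.845 to 0.865 over the 3 libraries. Fibulin 1 (FBLN1) stood at 261 ± 5.11 TPM, the collagen chaperone SERPINH1 at 239 ± 5.07 TPM and the small proteoglycan decorin (DCN) at 182 ± 25.8 TPM. PCOLCE, an enhancer of procollagen processing that was not on the list and was picked after its value was seen, had 1078 ± 26.8 TPM.

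Collagen chains that assemble into 1 trimer were not matched in RNA level. COL1A1 had 26.4, 30.1 and 17.6 TPM, and COL1A2, its partner in type I collagen, had 0.462, 0.622 and 1.25 TPM, so that COL1A1 was 14.1 to 57.2 times as high. COL3A1, whose product forms homotrimers, stood at 162 ± 8.93 TPM. For type VI collagen, COL6A2 was 3.08 to 3.23 times as high as COL6A1, and COL6A3 stood at 0.285 ± 0.122 TPM beside 183 ± 8.14 for COL6A2. Type V collagen was similar, with COL5A1 at 17.5 ± 1.48 TPM and COL5A2 at 0.816 ± 0.617 TPM. The basement membrane pair COL4A2 and COL4A1 was closer, with a ratio of 1.74 to 1.86. ACAN, POSTN, PLOD2 and MMP9 had 0 reads.

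Mesenchymal genes were present beside the adrenergic ones. Of 29 genes of the mesenchymal neuroblastoma state, 23 (79.3%) were present, beside 60.3% of all protein-coding genes. The list median was 7.70 TPM, beside 5.22 TPM over all protein-coding genes. LGALS1 (galectin 1) had 3156, 3149 and 3238 TPM, and S100A6, a calcium-binding protein, had 302 ± 39.1 TPM. TWIST1, a basic helix-loop-helix factor, had 335, 329 and 323 TPM and was 30.6 to 31.9 times as high as TWIST2. The surface receptor CD44 stood at 45.2 ± 2.42 TPM and YAP1, the Hippo pathway coactivator, at 2.97 ± 0.644 TPM. PRRX1, a homeodomain factor used to define the mesenchymal state, had 0.0385 ± 0.0397 TPM from 6 reads, and MEOX1 and MEOX2 had 0. The members thus ranged from rank 29 to 0 reads.

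Of 36 oncogenes and growth receptors, 28 were present. CDK4 and CCND1, which drive entry into S phase, had 479 ± 5.24 and 275 ± 53.0 TPM. MYC had 24.0, 21.3 and 22.9 TPM, and MYCN, amplified in many neuroblastomas but not in this line, had 2.19, 2.04 and 1.97 TPM, so that MYC was 10.4 to 11.6 times as high. The receptor kinase ALK had 1.89 ± 0.531 TPM. RET, the receptor for glial cell line derived factors, had 27.9 ± 2.59 TPM with 60.3% of its counts on listed transcripts. NTRK2 and KIT had 0 reads on listed transcripts but 35 and 57 counts in the gene table. CCND2 had 0 reads. Of 28 cell cycle genes, 27 were present, as were 19 of 20 genes of glycolysis and lactate handling and 21 of 21 heat shock and chaperonin genes. HSP90AB1, HSPB1 and HSPA8 led the chaperones at 896 ± 26.7, 878 ± 40.8 and 878 ± 138 TPM.

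Surface antigens covered a wide range of levels. Of 18 neuroblastoma surface antigens, 14 (77.8%) were present, beside 60.3% of all protein-coding genes. CD24 (313 ± 19.1 TPM), THY1 (225 ± 23.3 TPM), the proteoglycan GPC3 (159 ± 8.51 TPM) and CD276 (146 ± 4.48 TPM) led them. Ganglioside GD2 needs both B4GALNT1 and ST8SIA1 for its synthesis: B4GALNT1 had 31.4, 35.2 and 31.7 TPM, and ST8SIA1, the GD3 synthase, had 0.109, 0.585 and 0.0295 TPM, from 10 reads in all. Of 21 antigen presentation genes, 12 (57.1%) were present, near the 60.3% of all protein-coding genes. B2M and the chaperone CALR stood at 868 ± 48.3 and 775 ± 83.3 TPM. HLA-C had 118 ± 8.65 TPM and HLA-B 0.539, 0.983 and 1.06 TPM. HLA genes are near-identical and vary between people, so reads of an allele that differs from the reference can be lost or assigned to another HLA gene, and these levels are uncertain.

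Markers of other cell types were low, with named exceptions. Of 19 Schwann cell and glial markers, 3 were present and 10 had 0 reads, among them SOX10, FOXD3 and GFAP. Without replicate 1 the count was 5, and S100B, with 0.843, 1.56 and 1.52 TPM, was among those added. The highest of them was PMP22, a myelin protein also made outside glia, at 36.9 ± 1.44 TPM with 39.7% of its counts on listed transcripts. Of 18 blood and immune markers, CD68, a lysosomal protein, was the 1 present (10.4 ± 3.99 TPM), and CD3E, CD3D, CD2, MS4A1, CD163 and TYROBP had 0 reads. Without replicate 2 the count was 2, since CD14 had 1.19, 0.296 and 1.14 TPM. Of 11 endothelial and mural markers, RGS5, PDGFRB (36.2 ± 3.70 TPM) and CLDN5 (1.45 ± 0.349 TPM) were present, while CDH5, KDR and EMCN had 0 reads. Of 13 fibroblast and muscle markers, 7 (53.8%) were present, near the 60.3% of all protein-coding genes. DCN, the troponin TNNT1 (120.2 ± 9.24 TPM) and lumican (LUM, 99.1 ± 2.31 TPM) were highest, and MYOD1, MYOG and MYL1 had 0 reads. Of 15 pluripotency and germ layer markers, SOX2 was the 1 present, at 11.5 ± 1.06 TPM. Of 14 epithelial markers 4 were present, led by KRT18 (9.52 ± 0.185 TPM) and CLDN4 (7.81 ± 0.875 TPM), and of 17 markers of adrenal cortex, liver and other tissues TTR (2.77 ± 0.777 TPM) and STAR (2.62 ± 0.865 TPM) were present.

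**Figure D3:**
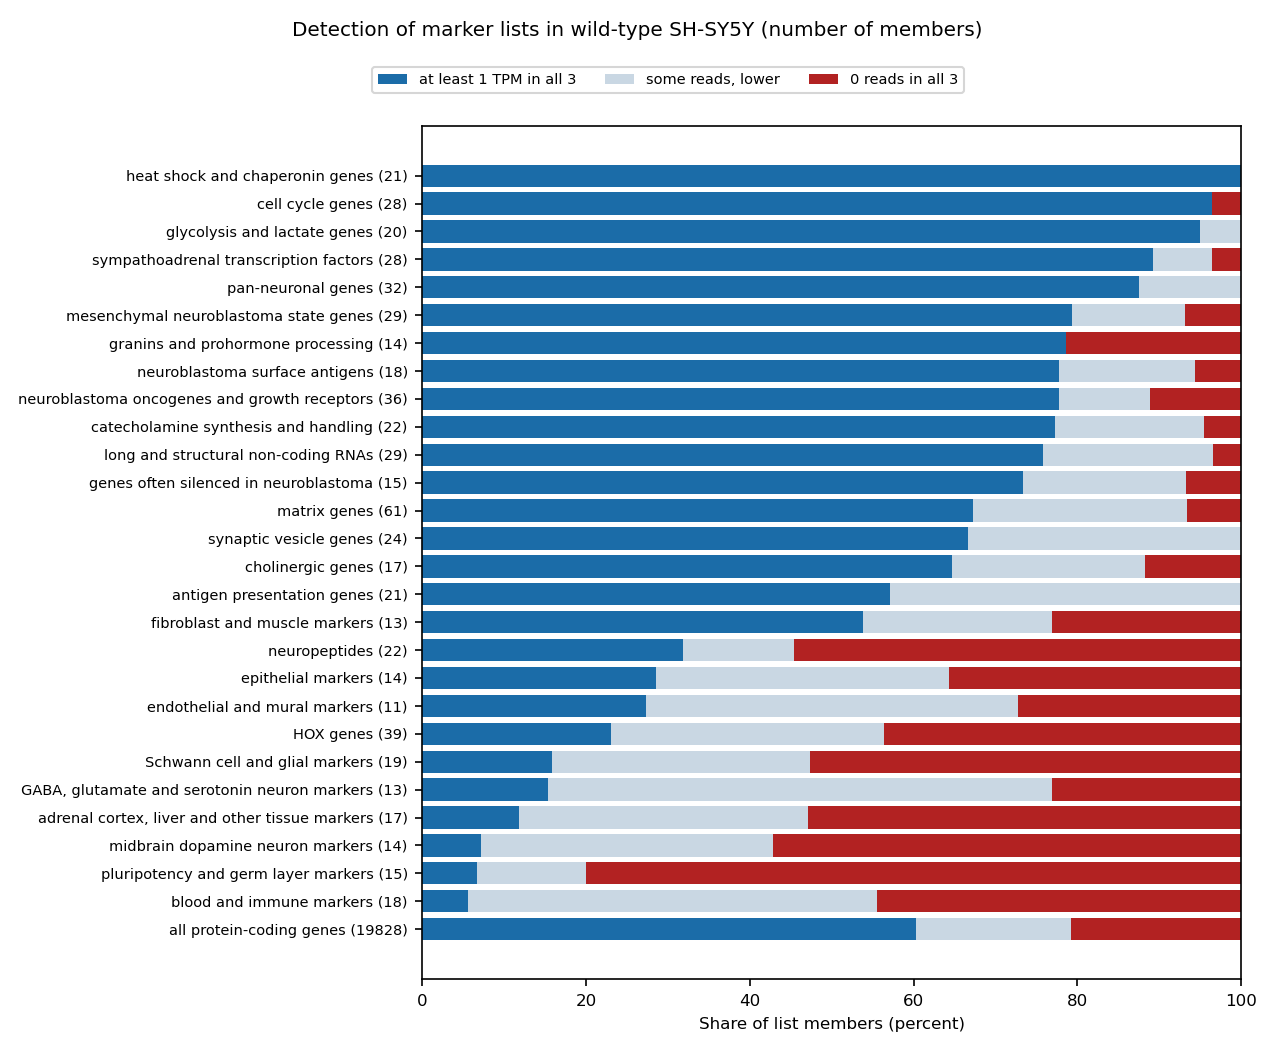
Share of the members of each gene list (number of members in brackets) with at least 1 TPM in all 3 WT libraries (blue), with reads but lower (grey) and with 0 reads in all 3 (red). The bottom bar gives all 19828 protein-coding genes, of which 60.3% were present.

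Genes that are often silenced in neuroblastoma were not all silent. Of 15 listed, 11 (73.3%) were present, beside 60.3% of all protein-coding genes. GSTP1 ranked 99, and CAMTA1, a calmodulin-binding factor of the short arm of chromosome 1, had 182 ± 8.48 TPM. The place of CAMTA1 depended on the unit: it ranked 677 by TPM but 3967 by CPM, while GSTP1 ranked 183 by CPM. CASP8, the initiator caspase of death receptors, had 2.20 ± 0.320 TPM with 80.0% of its counts on listed transcripts, and the decoy receptor TNFRSF10D had 0 reads.

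HOX genes, which record position along the body axis, came from the HOXC and HOXD clusters. Of 39 HOX genes, 9 (23.1%) were present, beside 60.3% of all protein-coding genes, and 17 had 0 reads. HOXC4 led at 17.9, 14.7 and 16.2 TPM, followed by HOXC6 at 10.6 ± 1.41 TPM, HOXD8 at 10.2 ± 0.656 TPM and HOXD9 at 9.73 ± 1.02 TPM. No gene of the HOXA or HOXB cluster exceeded 0.136 TPM, the level of HOXA9. HOXC4, HOXC5 and HOXC6 share exons in the annotation, so the division of reads among them is uncertain.

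**Figure D4:**
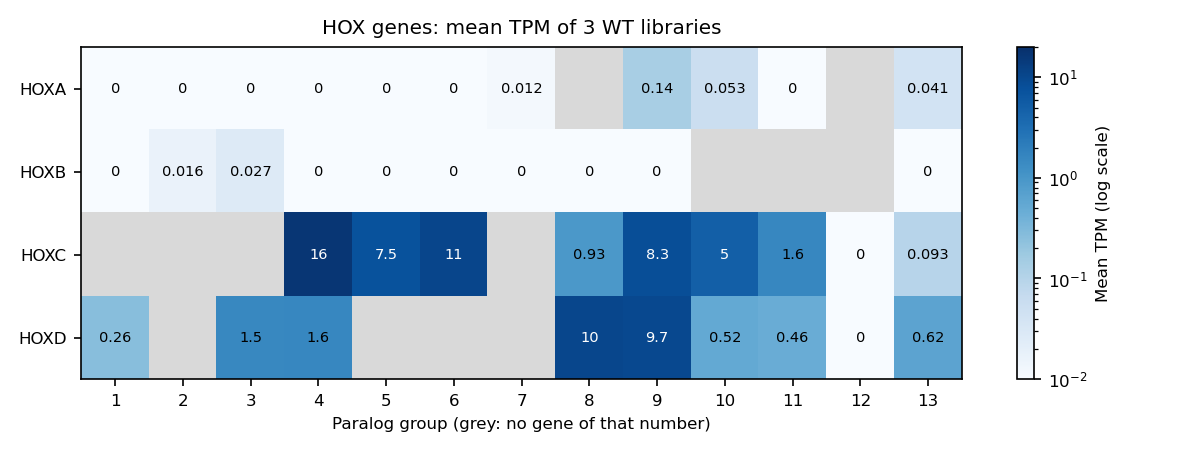
Mean TPM of the 3 WT libraries for each of the 39 HOX genes, by cluster (rows) and paralog group (columns), on a log colour scale. HOXC4 is highest at 16.3 TPM, and the HOXA and HOXB rows hold no value above 0.136 TPM.

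Of the 29 long and structural non-coding RNAs found in the files, 22 were present. H19, an imprinted RNA, led at 523, 492 and 477 TPM with 87.7% of its counts on listed transcripts. IGF2, its reciprocally imprinted neighbour, had 34.7, 29.9 and 25.6 TPM, which was 0.0537 to 0.0664 of the H19 level. ZFAS1 and SNHG6, hosts of small nucleolar RNAs, had 168 ± 7.30 and 167 ± 4.75 TPM. MEG3, an imprinted RNA of chromosome 14, had 1 read in 1 library. RPPH1, the RNA of ribonuclease P that every cell needs, was also listed at 0, so a 0 for a short structural RNA is not read here as absence.

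In all, 4111 protein-coding genes (20.7%) had 0 reads. For the median gene of these, 3 reads over the 3 libraries would have given 0.0617 TPM. Most or all members of some families were among them. Of 377 olfactory receptor genes 366 had 0 reads, as did 91 of 94 genes for keratin-associated proteins of hair, 37 of 37 β-defensins, 17 of 17 type I interferons and 43 of 55 keratins. No olfactory receptor reached 1 TPM, and the highest, OR1J4, had a mean of 0.236 TPM. Of the keratins 5 were present, with KRT10 highest at a mean of 15.0 TPM. The opposite held for families of basic cell functions. By symbol, 38 of 40 proteasome subunit genes and 33 of 34 aminoacyl-tRNA synthetase genes were present. So were 46 of 48 genes named as subunits or factors of respiratory complex I. Of 513 genes named as ZNF zinc fingers, 433 were present. Of the 4111 genes, 55 had counts in the WT columns of the gene table, as NTRK2 and KIT did.

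Most of the highest genes were carried by 1 transcript. Among the 200 highest protein-coding genes, 196 had at least 90% of their counts on listed transcripts, and their main transcript held a median of 94.4% of the gene's TPM. In 115 of the 196 the main transcript held at least 90%, in 64 it held 50% to 90%, and in 17 less. The smallest shares were those of HNRNPC (32.7% ± 1.12), H3F3B (35.8% ± 0.291), RPL15 (37.9% ± 0.641), RPL27A (39.8% ± 1.78), SRP14 (40.2% ± 3.25) and HMGB1 (42.0% ± 0.527). These genes encode an hnRNP, a replication-independent histone H3.3, a pair of ribosomal proteins, a signal recognition particle protein and a chromatin protein. In 6 genes the main transcript was annotated as non-coding: RPL4, RPL11, RPL14, OAZ1 and RPS28 had a retained intron transcript and RPL37 a processed transcript. In RPL4, for instance, the 582-base ENST00000564439 held 50.4% ± 1.32 of the gene's TPM but 22.1% of its estimated reads, since a TPM is divided by length. Salmon's division of reads among overlapping transcripts is an estimate.

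The marker genes differed in this respect. DBH was carried almost wholly by ENST00000393056 (99.5% ± 0.171 of its TPM), CHGB by ENST00000378961 (98.0% ± 0.689) and HAND2 by ENST00000359562 (91.6% ± 1.07). GATA3 was divided, with 52.6% ± 1.51 for ENST00000379328 and 25.8% for ENST00000346208. TFPI2 had 79.6% ± 0.643 on ENST00000222543 and 11.8% on the shorter ENST00000451238. RGS5 was divided further: the 5670-base ENST00000313961 held 46.5% ± 1.06 of its TPM and 88.9% of its estimated reads, and the 934-base ENST00000367903 held 27.3% of its TPM. DNAJC12 had 93.2% ± 1.41 on ENST00000225171. HAND2-AS1, with 47 listed transcripts, had 26.4% ± 1.69 on its main transcript.

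Some abundant genes lay mostly on transcripts that GENCODE 29 does not list, and their level is better read from the gene table. EEF1A1, the elongation factor that brings aminoacyl-tRNA to the ribosome, had 9096 CPM in the gene table but 1211 TPM, with 17.3% of its counts on listed transcripts. C7, a component of the complement membrane attack complex, had 3277 CPM and 54.9 TPM, with 3.40% on listed transcripts. The ribosomal protein gene RPS27 had 1096 CPM and 72.0 TPM, with 1.72%. With TPM scaled to the gene table's counts, EEF1A1 ranked 12, RPS27 ranked 20 and C7 ranked 91. These genes were picked after their values were seen.

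The 3 libraries differed little. The common dispersion from edgeR, fitted on 18394 genes with 1 mean per gene, corresponded to a CV of 9.11%. Among the 10535 genes that averaged 10 CPM or more the median CV was 5.86%, 8401 genes (79.7%) lay under 10% and 53 lay over 30%. Across genes, log2(TPM + 1) correlated with Pearson's r = 0.992 in the least similar pair and Spearman's rho of 0.922 to 0.925. These are descriptions across genes, which are not independent replicates. No library was a copy of another: the chi-square per gene between libraries was 4.37 for replicates 1 and 2, 9.53 for replicates 1 and 3 and 6.21 for replicates 2 and 3, where sampling noise gives about 1.

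By TPM, the widest spread among genes with at least 10 TPM was that of U2AF1L5, with 81.2, 22.8 and 0 TPM. It is a near-identical copy of the splicing factor gene U2AF1, which had 44.3, 122.5 and 156 TPM, so that the pair summed to 125, 145 and 156 TPM. ESYT2, MAGEA2B, HIST1H4K, SCARB1, AC034102.2, KRI1 and SYNJ2BP-COX16 followed, with CVs between 63.4% and 101%. ESYT2, MAGEA2B, SCARB1 and KRI1 had under 90% of their counts on listed transcripts, HIST1H4K and MAGEA2B have near-identical copies, and SYNJ2BP-COX16 is a readthrough gene, so that their division of reads is uncertain. The narrowest were NCBP2 (135.3, 135.5 and 135.4 TPM), SLC39A1, NGDN and TBCA, with CVs of 0.0677% to 0.191%.

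By gene table counts, the variable genes shared a pattern. Of the 100 protein-coding genes with the largest CV at 10 CPM or more, 55 were lowest in replicate 1 and highest in replicate 3, beside 20.3% of all genes at that level. The opposite, highest in replicate 1 and lowest in replicate 3, held for 19 of the 100, beside 23.2% of all genes. Named after their values were seen, the 55 included HBEGF, a ligand of the EGF receptor, with 8.42, 16.0 and 26.4 CPM in replicates 1, 2 and 3. SMAD6 and SMAD7, inhibitors of TGF-β family signalling, had 11.1, 23.2 and 33.2 CPM and 11.9, 15.1 and 26.4 CPM. ID3, a target of BMP signalling, had 66.6, 86.0 and 136 CPM, and the Notch target HES1 had 7.27, 13.5 and 19.7 CPM. DKK1, a secreted Wnt inhibitor, had 44.8, 72.1 and 111 CPM. Immediate early genes were among the 55 too: NR4A1 had 22.4, 30.9 and 43.3 CPM and JUN had 26.6, 30.5 and 42.1 CPM. KLF6 and CYR61, which growth factors also induce, had CVs of 36.3% and 40.4% with the same order, whereas FOS and EGR1 had CVs of 9.61% and 3.05%. The 55 were not confined to signalling genes. They included genes of DNA replication: RRM2 had 134, 175 and 218 CPM and MCM5 had 58.8, 75.4 and 96.9 CPM in replicates 1, 2 and 3. What lay behind this order was not tested. Among the markers, TFPI2 (19.2%) varied most by CPM and GATA3 (1.49%) least. By TPM, TFPI2 and DBH rose in order from replicate 1 to replicate 3, and HAND2 and CHGB fell.

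**Figure D5:**
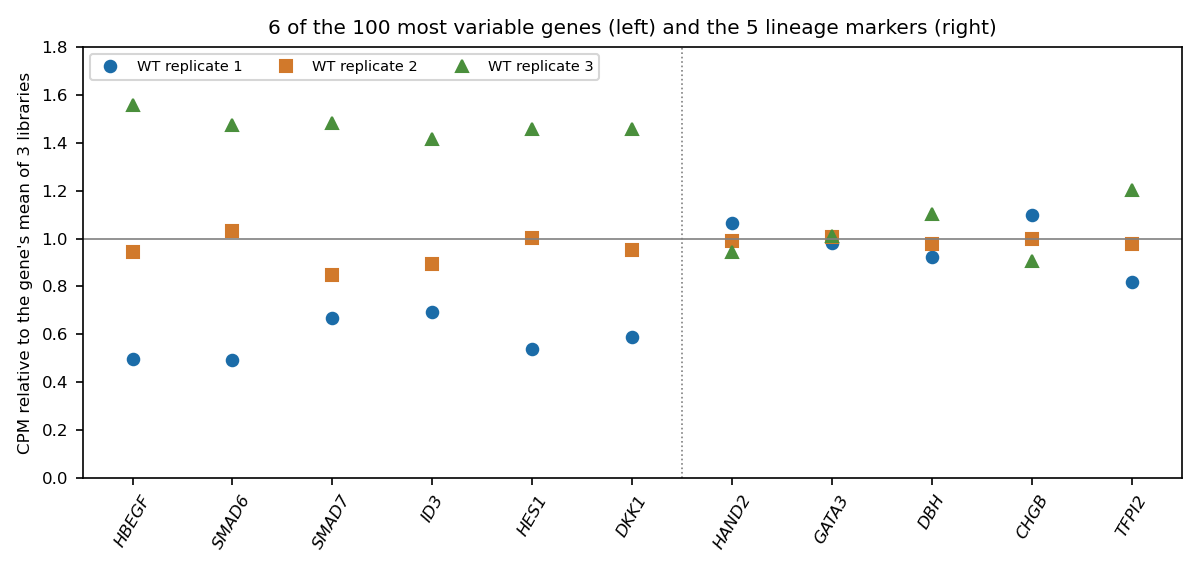
CPM of each WT library relative to the gene's mean of the 3 libraries (replicate 1 circle, replicate 2 square, replicate 3 triangle) for 6 genes picked from the 100 most variable, left of the dotted line, and the 5 genes taken as markers, right of it. The 6 genes lie lowest in replicate 1 and highest in replicate 3, and the markers lie closer to 1.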

How the data were processed

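Per the labels' protocols, total RNA from TRIzol lysates was depleted of cytoplasmic and mitochondrial ribosomal RNA (Ribo-Zero Gold), and random-primed TruSeq Stranded libraries were prepared. The submitters' processing notes name cutadapt 3.5, Salmon 1.10.0, DESeq2 1.42.1 and the build GRCh38.p14. The annotation release and strand setting are not given in the sources used here.

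Salmon's transcript files were deposited by the authors, 1 for each library, and per their file headers hold estimated counts, effective lengths and TPM values for 251955 transcripts. The authors' gene table holds whole-number counts per gene, not normalized; 403 repeated rows of 21071 were removed, and its 3 other per-sample columns were not used. TPM and estimated counts were summed to genes through GENCODE 29, matched by transcript ID without version. CPM was computed from the gene table.

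Spread was estimated with edgeR 4.0.16 (R 4.3.3, TMM, genes with at least 10 counts over the 3 libraries). The edgeR estimate of spread was run on simulated counts in which every gene had the same known spread. A check on made-up transcripts recomputed the TPM formula on its own. It did not cover the step that summed the deposited transcripts to genes. No test between groups was made. Alternatives were other level minimums, CPM, reads in place of TPM, other filters, DESeq2 1.42.0 and each library left out, and, chosen after seeing the data, TPM scaled to gene table counts. The members and the 27 gene lists were chosen with earlier results of these data known.

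Named genes are the 5 markers and DNAJC12, the 20 highest protein-coding and 5 highest other genes, the 4 highest members and up to 6 members at 0 reads of each list, the 8 widest and 4 narrowest spreads at 10 TPM or more, and, among the 200 highest genes, the 6 smallest main transcript shares and up to 8 non-coding main transcripts. Other genes are list members or were chosen after their values were seen, also where the text does not say so, as for MDK and MT-ND6. Some genes named by these rules are not reported here; counts and medians over lists include them.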

Additional observations from a re-analysis of the deposited data

How the results depend on the processing

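No paired analysis was possible because the values come from no test and a single group was described. The number of protein-coding genes present was 11959 and ranged from 9624 (5 TPM or more) to 13482 (0.1 TPM or more), and those with 0 reads ranged from 4056 to 4960 around 4111. Of the 595 list genes 354 were present, and 293 to 420 under the other settings. The share of the highest 100 genes moved from 39.1% of TPM to 19.7% of estimated reads, in which long genes weigh more, and to 31.5% without the mitochondrially encoded genes. The spread between libraries moved from 9.11% to 7.33% over genes with at least 10 CPM and to 12.1% as DESeq2's median over genes, and lay between 6.65% without replicate 3 and 11.4% without replicate 2. The lowest correlation between libraries, 0.992, became 0.980 with a pseudocount of 0.1 TPM and 0.987 over genes at 1 TPM or more, and with a library left out was 0.992 to 0.993. The median share of the main transcript was 94.1% by reads. At 5 TPM the count of members present moved by over 1.5 times in 5 of 27 lists. It fell from 7 to 3 for neuropeptides, from 11 to 6 for cholinergic genes and from 3 to 1 for Schwann cell and glial markers. It also fell from 4 to 2 for epithelial markers and from 2 to 0 for markers of adrenal cortex, liver and other tissues. At 0.1 TPM the count moved in 6 lists, as from 1 to 5 for blood and immune markers. Others were markers of GABA, glutamate and serotonin neurons (2 to 6) and HOX genes (9 to 15). Leaving out replicate 1 or replicate 2 moved 1 list each. Ranking by CPM moved 103 of 189 ranks by over 1.5 times, and scaling TPM to gene table counts moved 7 of 259. That scaling raised the rank of PMP22 from 3637 to 1498, of SCARB1 from 6927 to 2555 and of ESYT2 from 7904 to 5041. Depth limits the low end: a single count was worth 0.0498 to 0.0518 CPM, and levels resting on a few reads, such as those of TH, LMO3 and ST8SIA1, carry a large counting error.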
